A study of Homo sapiens with 2 samples.

Results

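The genes described here are PRKDC and 5 other genes whose proteins detect or repair broken DNA. MSI2 (Musashi-2) is an RNA-binding protein, and the data are lists of MSI2 CLIP-seq peaks in the RNA of NB4, an established human acute promyelocytic leukaemia cell line. In CLIP-seq, ultraviolet light links a protein to the RNA it touches, an antibody recovers that protein, and the attached RNA fragments are sequenced. All libraries belonged to 1 group with 2 replicates, each labelled with an equal number of cells and a dose of 400 mJ per square centimetre on ice, with no further treatment labelled and with no control antibody, input or MSI2-depleted library analysed here. The 6 genes were taken from 8801 Ensembl gene IDs that had a peak in either list, and they held 74 of 25920 peaks in replicate 1 and 62 of 25243 in replicate 2. PRKDC (ENSG00000253729) was chosen by its number of reproducible peaks in these lists, so its high count is a description of the choice and not a finding. XRCC5 (ENSG00000079246), XRCC6 (ENSG00000196419), PARP1 (ENSG00000143799), ATM (ENSG00000149311) and ATR (ENSG00000175054) were added for their known roles in the same processes. No comparison between conditions exists in this design, so no test was made and the values below describe the libraries.

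When both strands of DNA break, the Ku70 and Ku80 proteins (encoded by XRCC6 and XRCC5) ring the ends and recruit DNA-PKcs, the large kinase encoded by PRKDC, which directs the joining of ends. PARP1 detects strand breaks and builds chains of ADP-ribose there, while the kinases ATM and ATR signal to the cell cycle, ATM from double-strand breaks and ATR from stretches of single-stranded DNA. DNA-PKcs, ATM and ATR belong to the same family of very large kinases. Musashi proteins are known as regulators of the translation and stability of the mRNAs they bind.

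Each peak in the deposited lists carries a p-value from the authors and a whole number at the end of its name, called its tally here. No header or label explains the tally. It was 3 or more in every peak. It is treated here as if it were a number of reads, which was not tested. The sum of tallies, 155598 in replicate 1 and 133644 in replicate 2, stands for what was listed as peaks and not for sequencing depth, which is unknown. Every coordinate below is of the hg19 build, 1-based. A peak is called overlapped when a peak of the other replicate covers at least 1 nt of it on the same strand, and a reproducible peak is a replicate 1 peak overlapped in this way. No other gene ID had a peak inside the span of any of the 6 genes, on either strand, so no member peak was shared with another ID.

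PRKDC, XRCC5, PARP1 and ATM had peaks at the same places in both libraries, whereas XRCC6 and ATR had none. In replicate 1, 31 of the 74 member peaks were overlapped, which is 41.9% (95% Wilson interval 31.3% to 53.3%), against 35.7% of all peaks in that list. In replicate 2, 31 of the 62 member peaks were overlapped, 50% (37.9% to 62.1%), against 37.3% of all peaks in that list. These intervals cover counting error only, and peaks of the same gene are not independent. In each list 17 of the 31 belonged to PRKDC. That gene was chosen by its reproducible peaks, so the pooled shares partly describe the choice. Of the 6 genes, 4 had a reproducible peak, and 4001 of all 8801 gene IDs (45.5%) had at least 1. These are unlike sets, because all 6 genes had peaks in both lists and only 5552 of the 8801 IDs did. The 31 replicate 1 peaks and the 31 replicate 2 peaks formed 33 overlapping pairs at 29 separate sites, of which PRKDC held 16, ATM 6, PARP1 4 and XRCC5 3.

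**Figure D1:**
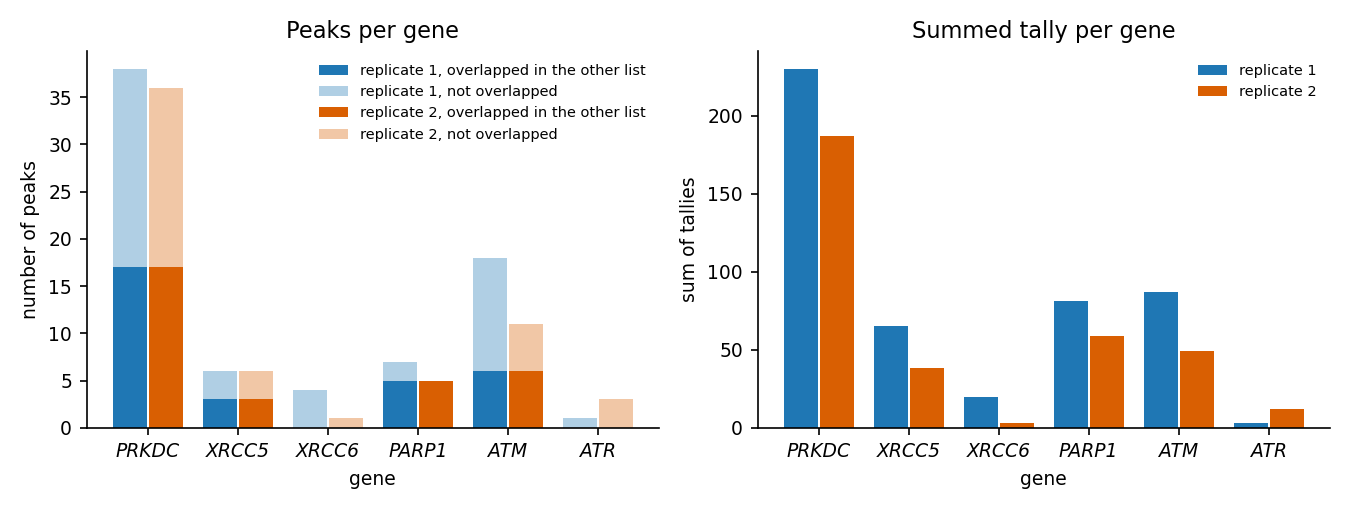
Number of peaks (left, count) and summed tally (right) of each of the 6 genes, with replicate 1 in blue and replicate 2 in orange. Full colour in the left panel marks peaks overlapped in the other list: 17 of 38 and 17 of 36 for PRKDC, and 0 for XRCC6 and ATR.

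PRKDC had 38 peaks in replicate 1 and 36 in replicate 2. No gene ID had more peaks than it in replicate 1, and it ranked 4th in replicate 2. With 17 reproducible peaks it ranked 2nd, behind 1 gene ID and level with 1 other. Counting only peaks with a tally of 5 or more in both lists, it had 16 peaks in replicate 1 (19th), 17 in replicate 2 (14th) and 9 reproducible peaks (21st). By summed tally over all its peaks, 230 in replicate 1 and 187 in replicate 2, it ranked lower, 18th and 24th. Its tallies were small: the median was 4 in both replicates, and 22 of its 38 peaks in replicate 1 and 19 of its 36 in replicate 2 had a tally of 3 or 4. In all, 55.0% of the peaks of the replicate 1 list and 63.9% of those of the replicate 2 list had such a tally. The peaks of PRKDC spread over 187 kb of the minus strand of chromosome 8, from 48685820 to 48872603. Per 10 kb of that span there were 2.03 peaks in replicate 1 and 1.93 in replicate 2. Gene IDs with 4 or more peaks in each list and a span of 10 kb or more numbered 1286. Their median was 1.74 peaks per 10 kb in replicate 1 and 1.68 in replicate 2, and PRKDC exceeded 722 and 719 of them. Those IDs were not matched to PRKDC in span, so its density among genes of similar span is not given here. Transcript lengths and RNA levels were not used here, and the share of the count that they carry was not tested.

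The most prominent site of PRKDC lay far inside the gene. It was a peak at 48827899 to 48827975 with a tally of 27 in replicate 1, and at 48827905 to 48827977 with a tally of 20 in replicate 2. The deposited p-values were 2.51e-22 and 9.34e-16, which placed it 117th of 25920 peaks in replicate 1 and 228th of 25243 in replicate 2. The centres of the short inner intervals that the files give within each peak lay 7 nt apart. It lay 142079 nt from the 3′ end of the span in replicate 1. Outside the 3′-most 2 kb and the 5′-most 4 kb, the next highest tallies were 9 in replicate 1, at 48855779 to 48855845, and 6 in replicate 2, at 48769805 to 48769858.

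A dense group of peaks sat at the 3′ end of PRKDC. Within the 3′-most 2 kb there were 6 peaks in replicate 1, with a summed tally of 64 (27.8% of the gene's 230), and 7 peaks in replicate 2, with a summed tally of 54 (28.9% of 187). All of them lay between 48685820 and 48686916, and 5 in each list were overlapped. The highest was at 48686235 to 48686304 with a tally of 23 in replicate 1 and at 48686251 to 48686295 with a tally of 11 in replicate 2, and the centres of the inner intervals lay 3 nt apart. Directly beside it, a peak at 48686200 to 48686234 had a tally of 11 in replicate 1, and one at 48686199 to 48686234 had a tally of 8 in replicate 2. At the very end, tallies were 9 in replicate 1 (48685827 to 48685872) and 8 in replicate 2 (48685820 to 48685863). Peaks in the 3′-most 2 kb numbered 30 and 35 per 10 kb. In the stretch that leaves out this end and the 5′-most 4 kb they numbered 1.55 and 1.38 per 10 kb. The span ends at its outermost peaks, so both end windows start at a peak by construction. The lengths are genomic and include introns, and the share of this contrast that exon layout carries was not tested.

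The 5′ end of PRKDC carried a smaller group. In the 5′-most 4 kb, a wider window than the 2 kb at the 3′ end, there were 4 peaks in each replicate. All were overlapped, with a summed tally of 22 in replicate 1 and 25 in replicate 2. Recurrence depended on the window: in the 5′-most 18.7 kb, 6 of 6 peaks in replicate 1 and 6 of 8 in replicate 2 were overlapped. A peak at 48869747 to 48869824 with a tally of 10 in replicate 1 corresponded to 2 peaks in replicate 2, at 48869741 to 48869785 and 48869794 to 48869824, with tallies of 6 and 7. Nearest the 5′ end, 2 touching peaks of replicate 1 at 48872549 to 48872555 and 48872556 to 48872574, each with a tally of 4, corresponded to 1 peak at 48872553 to 48872603 with a tally of 5 in replicate 2. The lists thus cut the same stretch of RNA into different numbers of peaks.

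**Figure D2:**
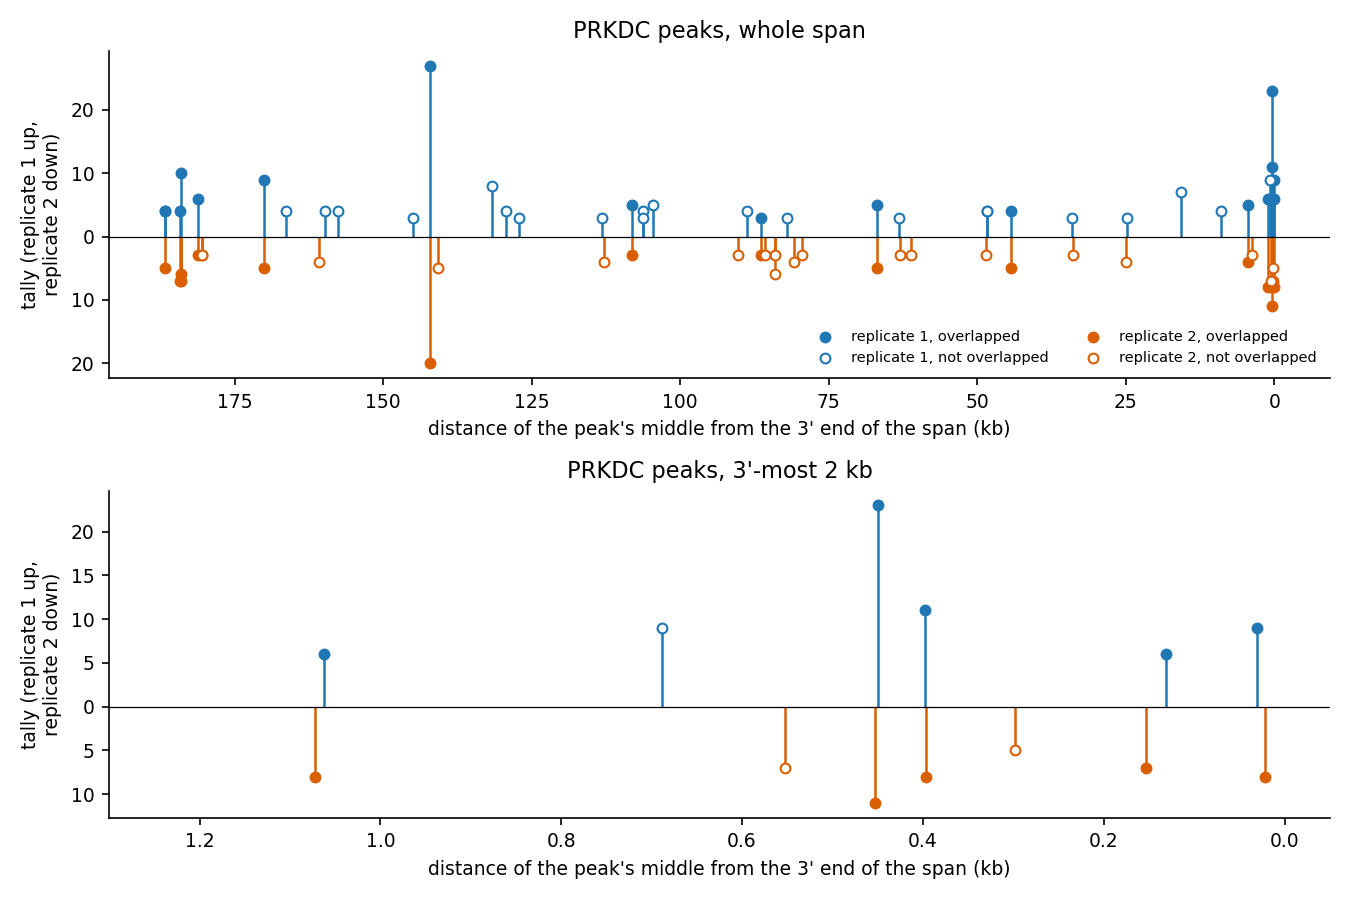
Peaks of PRKDC by distance of the peak's middle from the 3′ end of the span (kb, 3′ end at the right) and tally, with replicate 1 upward in blue and replicate 2 downward in orange, and filled points for peaks overlapped in the other list. The whole span (top) shows the site with tallies of 27 and 20 far from both ends, and the lower panel shows the 3′-most group, with tallies of up to 23 and 11.

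Between these ends, PRKDC had 28 peaks in replicate 1 and 25 in replicate 2, of which 8 in each list were overlapped. Most had small tallies: 19 of the 28 and 19 of the 25 had a tally of 3 or 4, against 55.0% and 63.9% of the whole lists. Apart from the most prominent site, the others reached 9 in replicate 1 and 6 in replicate 2. The weakest of the recurring sites was at 48772181 to 48772188 in replicate 1 and 48772172 to 48772192 in replicate 2, with a tally of 3 in both. Of the PRKDC peaks that were not overlapped, 13 of 21 in replicate 1 and 7 of 19 in replicate 2 lay more than 1 kb from any PRKDC peak of the other list. Some near misses occurred: 5 such peaks in each list lay within 200 nt of a peak in the other. The highest tally without an overlap was 9 in replicate 1, at 48686489 to 48686528, which was 100 nt from the nearest peak of replicate 2. Inside the gene, a peak at 48817428 to 48817477 had a tally of 8 in replicate 1, and the nearest PRKDC peak of replicate 2 was 9083 nt away.

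PRKDC peaks in replicate 1 were narrow. Their median width was 21 nt in replicate 1 and 33.5 nt in replicate 2, against 42 and 39 nt over the whole lists. In replicate 1, 9 of 38 (23.7%) were 10 nt wide or less, against 6.03% of that list, and in replicate 2, 3 of 36 (8.33%) were, against 8.55%. Overlapped PRKDC peaks had a median width of 35 nt in replicate 1 and 44 nt in replicate 2, and the others 19 and 29 nt, though a wider peak is overlapped more easily by construction. With peaks of 10 nt or less left out, PRKDC kept 29 peaks in replicate 1, 33 in replicate 2 and 14 reproducible peaks. The running numbers in the names of the peaks also differed between lists. In replicate 1 the numbers of PRKDC ran without a gap, with 38 numbers for 38 peaks, while in replicate 2 they covered 48 numbers for 36 peaks, so that 12 had no peak in the list. Over the whole lists, 8.77% of the numbers in replicate 1 and 9.52% in replicate 2 had no peak, counting up to the highest number of each gene. No source used here says what these gaps stand for.

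The Ku genes differed from each other. XRCC5, which encodes Ku80, had 6 peaks in each list, with summed tallies of 65 in replicate 1 and 38 in replicate 2. Its peaks lay on the plus strand of chromosome 2 from 216982497 to 217070713, and 4 of 6 in each list fell in the 3′-most 2 kb, with 80.0% of the tally in replicate 1 and 84.2% in replicate 2. All 3 recurring sites were in that stretch. The strongest was at 217070630 to 217070713 with a tally of 19 in replicate 1 and at 217070634 to 217070698 with a tally of 11 in replicate 2. A neighbouring site at 217070209 to 217070284 had a tally of 16 in replicate 1, and at 217070206 to 217070291 it had 11 in replicate 2, with centres 2 nt apart. The third, at 217069911 to 217069934 and 217069924 to 217069961, had tallies of 9 and 4 and shared 11 nt. The peaks near the 5′ end of XRCC5 did not recur, with tallies of 7 and 6 in replicate 1 and of 3 and 3 in replicate 2.

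XRCC6, which encodes Ku70, had 4 peaks in replicate 1 and 1 in replicate 2, with summed tallies of 20 and 3 and no overlap. They lay on the plus strand of chromosome 22 from 42018032 to 42033824. The highest was at 42032638 to 42032750 with a tally of 8 in replicate 1, and the peak of replicate 2, at 42033776 to 42033824, lay 1025 nt beyond it. With 0 of 4 peaks overlapped in replicate 1, the Wilson interval reaches up to 49.0%, above the 35.7% of the whole list.

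PARP1 had the strongest site of the 6 genes. It had 7 peaks in replicate 1 and 5 in replicate 2, with summed tallies of 81 and 59, on the minus strand of chromosome 1 from 226548803 to 226590030. At the 3′ end, adjoining peaks at 226548803 to 226548850 and 226548851 to 226548923 had tallies of 16 and 30 in replicate 1, and 1 peak at 226548804 to 226548924 had a tally of 27 in replicate 2. The peak with a tally of 30 had a deposited p of 3.84e-26, the 71st of its list, and its partner with a tally of 27 had 3.35e-20, the 101st. The 3′-most 2 kb held 66.7% of the tally in replicate 1 and 55.9% in replicate 2, including a further recurring site with tallies of 8 and 6 (226549700 to 226549784 and 226549697 to 226549752). The next strong site of PARP1 was at the other end of the span, at 226589914 to 226590018 with a tally of 14 in replicate 1, where replicate 2 had touching peaks at 226589915 to 226589956 and 226589957 to 226590030 with a tally of 9 each. A narrow site between them was at 226580001 to 226580016 in replicate 1 and 226579997 to 226580016 in replicate 2. It had tallies of 5 and 8, and its 5′ edge was the same base in both. All 5 PARP1 peaks of replicate 2 were overlapped, 2 of them by the same peak of replicate 1. The 2 peaks of replicate 1 that were not overlapped had a tally of 4 each. The whole-list shares at the same tallies, with 20 or more pooled, gave 4.21 overlapped peaks for replicate 1, where 5 were counted. They gave 3.81 for replicate 2.

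ATM had 18 peaks in replicate 1 and 11 in replicate 2, with summed tallies of 87 and 49, on the plus strand of chromosome 11 from 108114680 to 108239793. Its 6 recurring sites fell into groups along the span. The 3′-most 2 kb held 1 of them, together with 23.0% of the tally in replicate 1 and 12.2% in replicate 2. A 3′-most window of 4 kb, wider than the 2 kb used elsewhere at this end, left the shares of XRCC5 and PARP1 unchanged. In it PRKDC had 27.8% of its tally in replicate 1 and 30.5% in replicate 2. No whole-list value for 4 kb is given here. For ATM this window held 3 of the recurring sites, with 42.5% of the tally in replicate 1 and 28.6% in replicate 2. The sites there were at 108236948 to 108237028 with a tally of 10 in replicate 1 and 4 in replicate 2, at 108237208 to 108237262 with 4 in both, and at 108239065 to 108239123 with 9 in replicate 1 and 6 in replicate 2. Toward the 5′ end, a site at 108137997 to 108138070 had a tally of 10 in replicate 1 and 7 in replicate 2, and a site at 108121692 to 108121763 had 7 in replicate 1 and 5 in replicate 2. The remaining site, at 108196817 to 108196860, had 3 in replicate 1 and 7 in replicate 2. No ATM peak exceeded a tally of 10, and 12 of 18 in replicate 1 and 7 of 11 in replicate 2 had a tally of 3 or 4.

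ATR, the other signalling kinase, had fewer peaks than ATM and than PRKDC, which was chosen by its count. The median over all gene IDs was 2 peaks in each list, so the count of ATR was not unusual. ATR had 1 peak in replicate 1, at 142222271 to 142222302 of chromosome 3 on the minus strand with a tally of 3, and 3 peaks in replicate 2. The highest of these, at 142278142 to 142278196, had a tally of 6, and the ATR peak of replicate 1 was 55839 nt away. The 3 large kinases thus had 38, 18 and 1 peaks in replicate 1 and 36, 11 and 3 in replicate 2, for PRKDC, ATM and ATR in that order, over peak spans of 187, 125 and 101 kb.

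**Figure D3:**
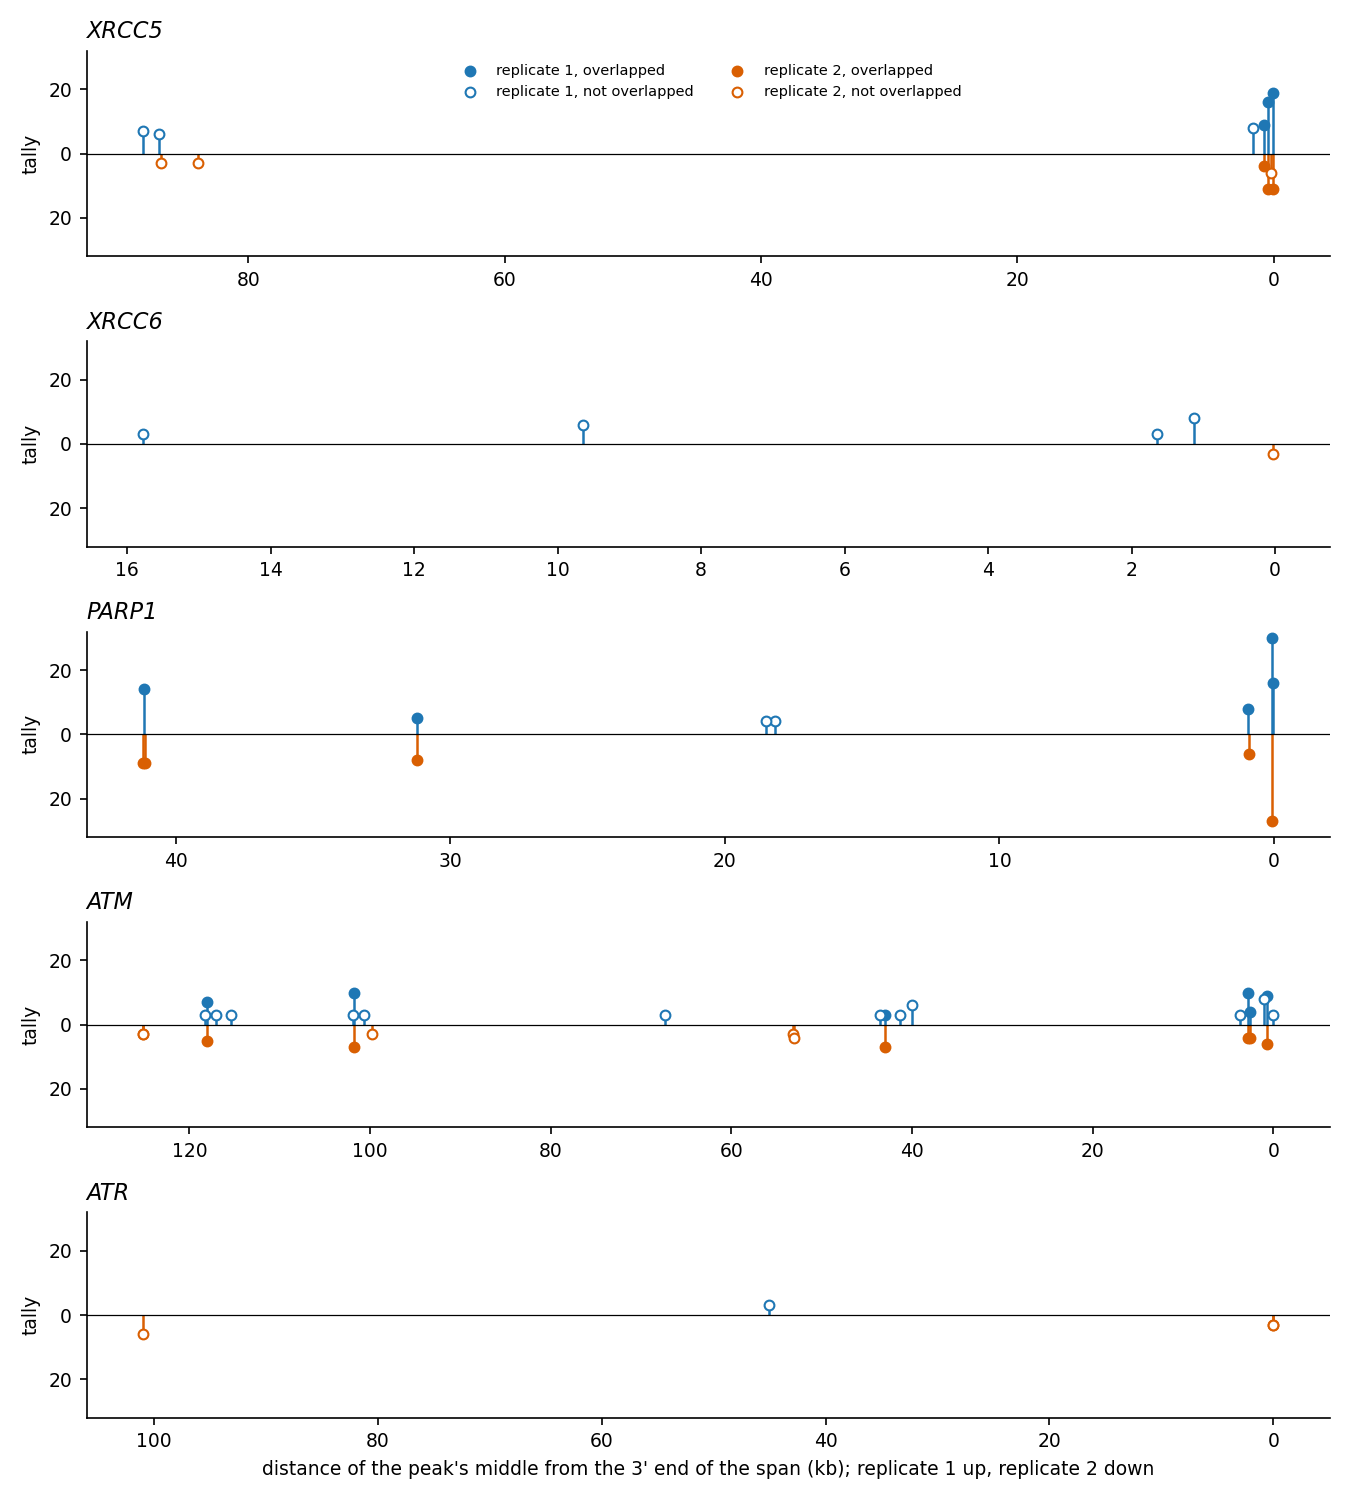
Peaks of XRCC5, XRCC6, PARP1, ATM and ATR by distance of the peak's middle from the 3′ end of the span (kb, 3′ end at the right, a separate scale for each gene) and tally (replicate 1 upward in blue, replicate 2 downward in orange). Filled points are overlapped in the other list: XRCC5 and PARP1 have their highest tallies at the 3′ end, ATM has recurring sites in several places, and XRCC6 and ATR have none.

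The genes placed different shares of their tally at the 3′ end. Over the same 1286 gene IDs, the 3′-most 2 kb of the span held a median of 40.6% of a gene's tally in replicate 1 (interquartile range 21.9% to 65.3%) and 37.6% in replicate 2 (18.8% to 60.8%). XRCC5 lay above these ranges in both replicates, with 80.0% and 84.2%, and PARP1, with 66.7% and 55.9%, lay above the range in replicate 1 and above the median in replicate 2. PRKDC, with 27.8% and 28.9%, and ATM, with 23.0% and 12.2%, lay below the median in both replicates. PRKDC exceeded 427 of the 1286 IDs in replicate 1 and 497 in replicate 2. On a scale from 0 at the 5′ end of the span to 1 at the 3′ end, the median PRKDC peak was at 0.482 in replicate 1 and 0.559 in replicate 2, where the median of the gene medians over the 1286 IDs was 0.863 and 0.841. The 1286 IDs were not matched in span to any of the 6 genes. A window of 2 kb is a smaller part of the 187 kb span of PRKDC or the 125 kb of ATM than of a shorter span. Shares and positions among genes of similar span are not given here. The span runs between the outermost peaks and includes introns, and annotated exons of hg19 were not used here, so the positions do not say which peaks lie in untranslated regions.

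Tallies of the overlapping pairs ran together between the replicates. Over the 33 pairs of the 6 genes, Spearman's rho was 0.69 and Pearson's r of log2 tallies was 0.74, and over the 18 PRKDC pairs they were 0.68 and 0.78. These are descriptions over sites of the same 2 libraries, in which some peaks belong to more than 1 pair. The tally was higher in replicate 1 in 21 pairs, higher in replicate 2 in 9, and equal in 3, and the replicate 1 list also held the larger sum of tallies. Relative to those sums, PRKDC had 14.8 of every 10000 in replicate 1 and 14.0 in replicate 2. The log2 ratio of these shares, replicate 2 over replicate 1, was -0.08. It was -0.24 for PARP1, -0.56 for XRCC5, -0.61 for ATM, -2.52 for XRCC6 and 2.22 for ATR. Among 5552 gene IDs listed in both replicates, the 5th to 95th percentile of this ratio was -1.68 to 1.80, so PRKDC, PARP1, XRCC5 and ATM lay inside and XRCC6 and ATR, with summed tallies of 3 in one list, outside.

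**Figure D4:**
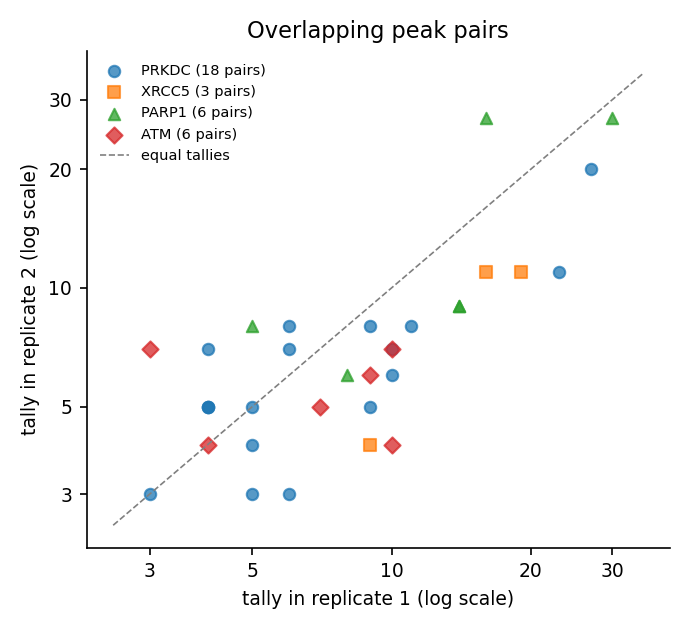
Tally in replicate 1 against tally in replicate 2 (both axes logarithmic) for the 33 overlapping pairs of PRKDC, XRCC5, PARP1 and ATM, with a dashed line at equal tallies. The pairs run along the line, with 21 below it and 9 above it.

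Whether a member peak was found again went with its tally. With a tally of 3, 2 of 23 peaks of the 6 genes in replicate 1 and 3 of 23 in replicate 2 were overlapped, against 11.9% and 15.5% of all peaks of that tally. With a tally of 8 or more, 16 of 21 in replicate 1 (76.2%) and 11 of 11 in replicate 2 were, against 79.7% and 84.1% of all. PRKDC alone had 6 of 8 and 5 of 5 in that class. Each member peak was then given the share that its whole list had at the same tally, with tallies of 20 or more pooled. This gave 29.2 overlapped peaks for replicate 1 and 26.2 for replicate 2, where 31 were counted in each. For PRKDC the same calculation gave 13.9 and 14.4, where 17 were counted in each. The counts were thus close to what the lists gave at equal tallies, and the difference was not tested. PRKDC was chosen by its 17 reproducible peaks, which are also part of the 31. Neither excess over the calculation is therefore a finding.

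**Figure D5:**
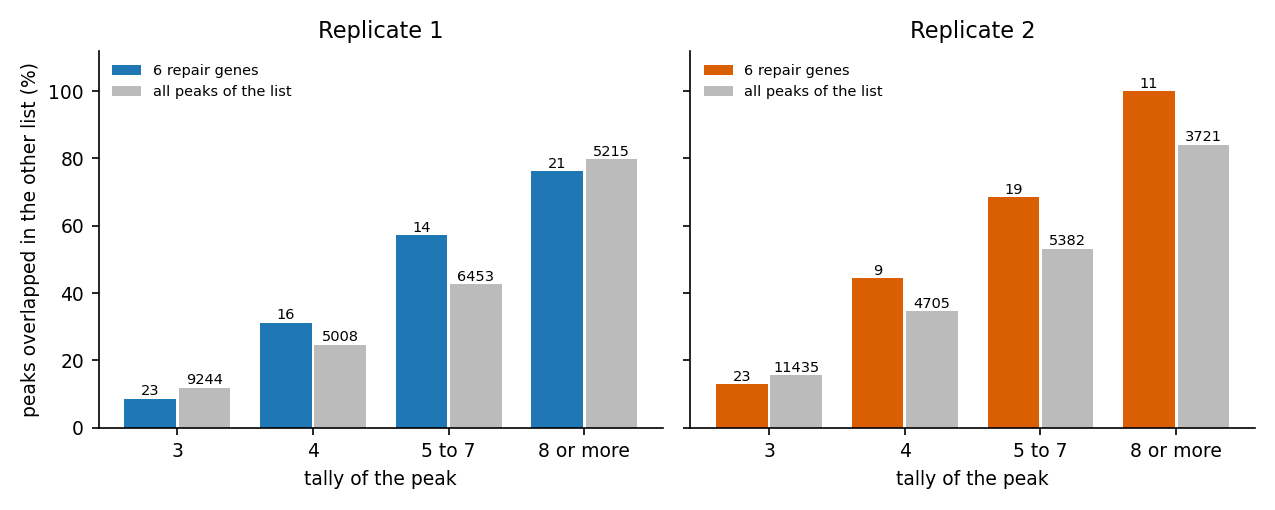
Percentage of peaks overlapped in the other list by tally, for the peaks of the 6 repair genes (coloured bars) and for all peaks of the list (grey bars), with the number of peaks above each bar. The share goes up with tally in both sets, to 76.2% and 79.7% in replicate 1 and to 100% and 84.1% in replicate 2 at a tally of 8 or more.

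The gene IDs whose values were most like those of PRKDC were found by the sum of absolute differences of log2(1 + value) over 6 quantities, namely peaks and summed tally in each replicate, reproducible peaks and the span in kb. The closest was ENSG00000197971 (chromosome 18, minus strand, 74724886 to 74840698), with a distance of 2.47. It had 28 peaks in replicate 1, 24 in replicate 2 and 12 reproducible peaks. The next was ENSG00000182095 (chromosome 7, minus strand, 5346658 to 5430258), with a distance of 2.96, 26 and 36 peaks and 16 reproducible peaks, and then ENSG00000060982 (chromosome 12, minus strand, 24964407 to 25047212), with a distance of 3.12, 20 and 26 peaks and 12 reproducible peaks. PRKDC had more peaks in replicate 1 and a longer span than any of these 3. In the 3′-most 2 kb, the closest ID had 6.85% of its tally in replicate 1 and 14.9% in replicate 2, the next 20.9% and 10.1%, and the third 29.9% and 35.7%, beside 27.8% and 28.9% in PRKDC.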

How the data were processed

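MSI2 CLIP-seq peaks of NB4 cells were analysed as 1 list for each of 2 replicates, which the labels number without naming separate cultures, so their spread may be technical. The tools and build named in the submitters' processing notes are cutadapt, STAR 2.3.0e, Bowtie 1.0.0 and hg19. No source used here names the peak caller. The deposited p-values, which the authors gave per peak and which are all under 0.05, served to rank peaks inside their own list. The other deposited columns hold positions and names.

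From these, overlaps (tested on simulated data), tallies and positions were computed per gene ID with Python 3.11.15, pandas 2.3.3, NumPy 2.4.6, SciPy 1.17.1 and, for figures, matplotlib 3.10.9. The members and lists were chosen with earlier results of these data known. The names of the 6 genes came with the choice of members, and the RefSeq table of GRCh38.p14 placed all 6 symbols on the chromosomes of their peaks. It pairs no Ensembl ID with a symbol, so a wider list of repair genes was not analysed here. Named items were the 6 members, the 3 IDs most like PRKDC and the strongest pairs. No hg19 sequence was used here.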

Additional observations from a re-analysis of the deposited data

How the results depend on the processing

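The peaks of the 6 genes numbered 49 in replicate 1 and 38 in replicate 2 in the stronger 50% of both lists (ranked by p), 11 and 7 in the strongest 10%, and 35 and 30 with a tally of 5 or more, fewer by construction. Reproducible peaks, 31 as reported, numbered 6 with the strongest 10% and 19 with a tally of 5 or more, and 62 to 74 with either replicate left out, since every peak of the other then counts. The share overlapped was 29.7% in replicate 1 and 35.5% in replicate 2 with a reciprocal overlap of 50% (whole lists 26.8% and 27.5%), 54.3% and 66.7% with a tally of 5 or more (43.7% and 56.2%), and 54.5% and 85.7% with the strongest 10% (55.1% and 57.1%). With the stronger 50% it was 49.0% in replicate 1 and 63.2% in replicate 2 (44.5% and 46.3%). The median position of PRKDC peaks became 0.779 and 0.642 with a tally of 5 or more and 0.618 in both replicates with the strongest 10%, where 4 and 2 peaks were left. The causes of these shifts, other than fewer peaks, were not tested.

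The rank of PRKDC was lower among peaks of higher tally and in the strongest 10%, and moved less under the other settings. Alternatives for rank, and for peaks of 10 nt or less, were chosen after seeing the data. By reproducible peaks it was 2nd as reported, 3rd to 4th under the other overlap rules, without narrow peaks, in the stronger 50% and after merging peaks up to 50 nt apart, 21st with a tally of 5 or more (9 peaks) and 97th with the strongest 10% (2 peaks). By peaks it was 1st in replicate 1 and 4th in replicate 2 as reported, 1st and 10th in the stronger 50%, 1st and 6th after merging, 1st and 3rd without narrow peaks, 19th and 14th with a tally of 5 or more, and 59th and 227th with the strongest 10%. With a reciprocal overlap of 50% its reproducible peaks numbered 10. XRCC6 and ATR had 0 under each alternative that used both lists. No paired analysis was possible because there was 1 group. The planned values for a wider list of repair genes were not run, because no table used here pairs the gene IDs with symbols. Unknown depth, small tallies and the absence of a control library limit all values.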
